A study of Mus musculus with 34 samples.

Results

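Enzymes that oxidise foreign compounds and join them to glutathione were followed in whole embryonic mouse lungs with and without Lin28A. The genes are those of cytochrome P450 families 1 to 4, the flavin-containing monooxygenases (Fmo), the cytosolic glutathione transferases of classes alpha, mu, omega, pi and theta (Gst) and the microsomal glutathione transferases (Mgst). They were chosen by symbol among protein-coding genes and kept where at least 2 libraries had 10 or more raw counts. This gave 46 of the 21789 deposited genes: 23 P450, 4 Fmo, 16 Gst and 3 Mgst genes. A further 16 protein-coding rows with such symbols had too few counts. The choice used the size of the counts and no comparison between groups. It is still not independent of the comparisons for genes that passed only where they were high. Cyp2j5 passed through E14.5 global replicates 3 and 4 (12 and 179 counts). Cyp4f37 passed through E14.5 control replicate 2 and E16.5 control replicate 3 (11 and 14 counts). Gstp3 passed through control and epithelial libraries alone. Cyp4f39 passed through epithelial replicates 2 and 3 (20 and 10 counts) and E18.5 global replicate 3 (10 counts). Just inside the count minimum were Cyp2j5, Cyp4f37 and Cyp4f39, whose second-highest counts were 12, 11 and 10. Just outside was Gstp2, with 10 counts in 1 library and 9 in the next. All 46 genes passed the filter for testing.

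Poly(A) RNA of 34 lungs was sequenced. Lungs with Lin28A expressed throughout the embryo, called global here, were collected at E12.5 (n = 3), E14.5 (n = 4), E16.5 (n = 3) and E18.5 (n = 5). At E18.5 there were also lungs with Lin28A in lung epithelial cells (epithelial, n = 3) and in lung mesenchymal cells (mesenchymal, n = 2). Control lungs without Lin28A expression were collected at E12.5, E14.5 and E16.5 (n = 3 each) and E18.5 (n = 5). All dams, those of controls included, drank doxycycline at 1 g/L from E0.5. The titles carry the tags Vasa (global), Nkx2.1 (epithelial) and Wt1 (mesenchymal); what drives Lin28A in each, its allele and the strain are not described in the labels. The libraries of a group are not stated to be separate animals or litters, so p-values measure the spread between these samples only. Total counts ranged from 7147301 to 17624884 per library.

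A cytochrome P450 is a haem enzyme of the endoplasmic reticulum that inserts oxygen into lipids, steroids, drugs and toxins, with electrons passed on by the reductase Por. Flavin-containing monooxygenases oxidise nitrogen and sulphur in foreign compounds. Glutathione transferases join the reactive products to glutathione. In the mature mouse lung much of this activity sits in club cells, the secretory cells of the airway, which is why the club cell poison naphthalene, activated by Cyp2f2, injures that cell type.

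Promoters of 4 genes that the results turn on are shown for reference. These genes are Fmo2, the most abundant member per kilobase, Cyp2f2, the next, and Gstm1 and Gstm5. Gstm1 and Gstm5 lie in the same gene cluster, with Gstm2, Gstm6 and Gstm7 between them, and their levels moved in opposite directions. The promoters are RefSeq sequences of the GRCm38.p6 assembly from 250 bases before to 50 bases after a transcript start. They lie at chr1:162898444-162898743 and chr1:162898709-162899008 on the minus strand (Fmo2, both annotated starts), chr7:27119705-27120004 on the plus strand (Cyp2f2), chr3:108017769-108018068 on the minus strand (Gstm1) and chr3:107895604-107895903 on the plus strand (Gstm5). Capitals mark matches on either strand to TNGCGTG (xenobiotic response element core), TGACNNNGC (antioxidant response element core), TGTTTAC (Foxa core), TTGCNNAA (CEBP core) and TATAAA.
Fmo2, inner start: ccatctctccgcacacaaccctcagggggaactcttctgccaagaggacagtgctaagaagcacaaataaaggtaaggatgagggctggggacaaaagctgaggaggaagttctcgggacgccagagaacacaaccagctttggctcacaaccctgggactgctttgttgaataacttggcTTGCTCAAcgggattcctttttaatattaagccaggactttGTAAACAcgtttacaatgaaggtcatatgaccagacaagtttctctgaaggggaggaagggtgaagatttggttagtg
Fmo2, outer start: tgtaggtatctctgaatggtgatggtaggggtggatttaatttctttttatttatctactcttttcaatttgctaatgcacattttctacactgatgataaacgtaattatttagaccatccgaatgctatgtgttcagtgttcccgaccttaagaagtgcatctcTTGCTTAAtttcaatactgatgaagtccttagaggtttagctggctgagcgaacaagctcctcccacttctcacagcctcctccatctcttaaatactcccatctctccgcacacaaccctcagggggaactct
Cyp2f2: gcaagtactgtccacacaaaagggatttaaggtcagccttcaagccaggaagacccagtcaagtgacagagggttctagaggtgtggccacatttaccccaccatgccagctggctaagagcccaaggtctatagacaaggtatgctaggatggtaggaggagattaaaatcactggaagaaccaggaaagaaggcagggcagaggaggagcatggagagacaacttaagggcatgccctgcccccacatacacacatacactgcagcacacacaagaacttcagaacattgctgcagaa
Gstm1: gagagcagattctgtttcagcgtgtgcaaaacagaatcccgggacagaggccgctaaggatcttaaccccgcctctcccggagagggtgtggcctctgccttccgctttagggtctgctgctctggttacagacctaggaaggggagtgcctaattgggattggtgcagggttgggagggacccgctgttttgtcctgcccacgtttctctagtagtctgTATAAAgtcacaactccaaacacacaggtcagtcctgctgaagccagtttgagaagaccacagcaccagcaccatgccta
Gstm5: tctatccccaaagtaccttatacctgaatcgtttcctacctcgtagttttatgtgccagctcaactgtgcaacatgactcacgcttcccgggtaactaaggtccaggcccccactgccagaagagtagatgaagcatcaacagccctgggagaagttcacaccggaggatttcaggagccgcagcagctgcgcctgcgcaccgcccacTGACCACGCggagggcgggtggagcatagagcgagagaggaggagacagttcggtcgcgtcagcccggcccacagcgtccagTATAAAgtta

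In these windows the Fmo2 inner start held a Foxa core and a CEBP core, the outer start a CEBP core, the Gstm1 start shown a TATAAA upstream of it (the second annotated Gstm1 start held none of the 5 motifs), and Gstm5 an antioxidant response element core and a TATAAA inside the transcript. Promoters were found for 39 of the 46 genes. The antioxidant core occurred in 7 of these 39 genes (17.9%, against 14% of 27025 genes), the CEBP core in 8 (20.5%, against 12.2%), TATAAA in 9 (23.1%, against 15.7%), the Foxa core in 2 (5.13%, against 4.05%) and the xenobiotic core in 1, Gsta2 (2.56%, against 5.84%). These are letter matches in one window and describe no binding.

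The labels were checked on Lin28a, which lay between 289 and 1300 CPM (counts scaled to a common library size) in every transgenic library and between 0.191 and 4.15 CPM in every control library. Some libraries stood apart in markers of other tissues. Replicate 4 of the E14.5 global group had a summed level of 616 CPM over 15 kidney proximal tubule markers, against 57.7 to 78.9 CPM in the other global libraries and 87.4 to 98.95 CPM in the controls of that day. Replicate 3 of the E14.5 controls had 434 CPM over 10 thymus markers, against 10.9 and 11.1 CPM in the other E14.5 controls. Replicate 1 of the E18.5 controls had 1278 CPM over 16 hepatocyte markers, against 38.96 to 152 CPM in the other E18.5 controls. Epithelial replicate 1 had 24510 CPM over 10 erythroid markers, against 3489 and 4395 CPM in the other epithelial libraries. Sums over 12 cardiomyocyte markers varied within the E12.5 groups, at 70.55 to 2342 CPM in global lungs and 692 to 2810 CPM in controls. The kidney list is not specific at late stages, since E18.5 controls summed to 451 to 729 CPM over it. Counts of called genes that the kidney-, thymus- or hepatocyte-marked library moves are given with and without it. So are most named calls that depend on such a library.

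The enzyme genes together took a growing share of all counts in control lungs, and a lower one in global lungs than in controls from E14.5 on. In global lungs the share was 0.0420 to 0.0465% on day E12.5, 0.0426 to 0.0521% on day E14.5, 0.0436 to 0.0508% on day E16.5 and 0.0544 to 0.0800% on day E18.5. E12.5 controls gave 0.0447 to 0.0503%, E14.5 controls 0.0536 to 0.0628%, E16.5 controls 0.0998 to 0.128% and E18.5 controls 0.174 to 0.244%. Fmo2 alone had a median of 5.78% of these counts in E18.5 global lungs, against 34.7 to 43.3% (median 37.9%) in E18.5 controls. The share of all members was 0.164 to 0.176% in E18.5 epithelial lungs and 0.0626 and 0.0785% in the mesenchymal ones. At E14.5, E16.5 and E18.5 no global library reached the share of any control of its day, and at E18.5 no mesenchymal library did. With Fmo2 left out the E14.5 ranges overlapped, at 0.0419 to 0.05116% in global lungs and 0.051 to 0.05965% in controls. The global and control ranges at E16.5 and E18.5 did not overlap without Fmo2 either. The whole lung was sequenced, so fewer cells of a type and less RNA per cell cannot be told apart.

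Calls are genes with an edgeR quasi-likelihood adjusted p under 0.05, with adjustment over all 18319 tested genes, and ± after a log2 fold is its standard error. At E14.5 against E12.5, 15 of the 46 genes rose in controls and 2 fell, where 16.7% of all genes were called (11.3% higher and 5.44% lower). The largest rise was that of Cyp2f2, which had 18.1, 26.8 and 40.7 CPM at E14.5, against 0.0602, 0.423 and 0 CPM at E12.5 (7.40 ± 0.96, edgeR adjusted p = 2.49e-06). The fatty acid and toxin oxidase Cyp4b1 (3.04 ± 0.49) and Fmo2 (2.82 ± 0.46) also rose, while Gstm5 (-0.45 ± 0.15) and the oestrogen and polycyclic hydrocarbon oxidase Cyp1b1 (-0.87 ± 0.24) fell. The count was 11 without replicate 2 of the E12.5 controls and 11 without replicate 3 of the E14.5 controls, the thymus-marked library.

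At E16.5 against E14.5, 21 genes rose and 2 fell in controls, with 35.9% of all genes called (18.1% higher). All 4 Fmo genes were among the risers, led by Fmo2, which had 285, 373 and 268 CPM at E16.5, against 18.1, 29.3 and 30.8 CPM at E14.5 (3.56 ± 0.42, edgeR adjusted p = 2.86e-07). Gstm5 (-0.66 ± 0.15) and Gstp1, the pi class transferase (-0.86 ± 0.25), fell. At E18.5 against E16.5, 18 genes rose and 1 fell, with 36.3% of all genes called (17.1% higher). Without the hepatocyte-marked E18.5 control replicate 1, 16 rose and 1 fell. The alcohol and acetone oxidase Cyp2e1 rose most among the 18 (2.92 ± 0.63), followed by Gsta3 (2.096 ± 0.41), Cyp4b1 (2.07 ± 0.30) and the fatty acid hydroxylase Cyp4v3 (2.06 ± 0.27). The member that fell was again Gstm5 (-0.48 ± 0.14), so it was called lower at each of the 3 control steps. The first of these calls was lost in a fit of the compared groups alone (-0.45, edgeR adjusted p = 0.109) and when any of 4 libraries was left out (-0.46 to -0.33, adjusted p = 0.0605 to 0.184). Per kilobase of exon, the highest group means were 150.5 CPM for Fmo2 and 117 CPM for Cyp2f2 in E18.5 controls, followed by 82.2 CPM for Gsta4 in epithelial lungs and 75.2 CPM for Gstm1 and 73.2 CPM for Mgst1 in E18.5 controls. Of the 46 genes, 20 had their highest group mean in E18.5 controls and 13 in E18.5 epithelial lungs.

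At E12.5 none of the 46 genes was called between global and control lungs by edgeR, where 0.229% of all genes were called. At an unadjusted p under 0.05 there were 2. DESeq2 called 1, Fmo2 (log2 fold -2.20, DESeq2 adjusted p = 0.00991), and edgeR gave -2.14 ± 0.66 with an adjusted p of 0.247. Fmo2 had 1.62, 0.429 and 0.316 CPM in global lungs, against 4.09, 2.54 and 4.44 CPM in controls. The groups did not overlap, at low levels in both.

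At E14.5, 10 of the 46 genes fell in global lungs and 1 rose, where 12.9% of all genes were called (8.43% lower). The genes that fell were Fmo2, Cyp2f2, Cyp4b1, Cyp4f18, Cyp2s1, Mgst1, Gstm2, Gstt1, Gstt2 and Gstt3. Cyp2f2 had 5.41, 6.28, 0.591 and 0.0868 CPM in global lungs, against 18.1, 26.8 and 40.7 CPM in controls (-3.19 ± 0.57, edgeR adjusted p = 0.000361). Every global library lay below every control, and the lowest was the kidney-marked replicate 4; without it the fold was -2.79 ± 0.55. Fmo2 had 7.05, 5.46, 4.48 and 9.12 CPM in global lungs, against 18.1, 29.3 and 30.8 CPM in controls (-2.004 ± 0.40, adjusted p = 0.00122). Cyp4f18 had 3 counts over the 4 global libraries, against 26 over the 3 controls. The count of 11 called genes became 9 without global replicate 4 and 7 without the thymus-marked control replicate 3. Without control replicate 3, 6 genes were called lower in edgeR's test. The calls lost included Cyp2s1 (-0.97, adjusted p = 0.0886), Mgst1 (-0.59, adjusted p = 0.107) and Gstt1 (-0.52, adjusted p = 0.155). The rise of Cyp2j5 was no longer called either (3.85 ± 1.46, adjusted p = 0.12), and Cyp1b1 was called higher (0.84, adjusted p = 0.038). The call of Cyp2s1 was also lost without global replicate 3 (adjusted p = 0.0763), and that of Gstt1 when any of 5 libraries was left out.

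The gene that rose at E14.5 was Cyp2j5, an arachidonic acid epoxygenase abundant in mouse kidney. It had 0.290, 0.369, 1.01 and 15.5 CPM in global lungs, against 0.614, 0 and 0 CPM in controls. The call rested on the kidney-marked replicate 4, in which the kidney and liver genes Gsta2 (5.30 CPM), Cyp2d26 (5.12 CPM) and Cyp2e1 (1.56 CPM) were also far above the other 3 global libraries. Several genes below the count minimum had their counts in the same library: Cyp4a14 82, Cyp4a10 76, Cyp4a31 73, Cyp2j11 22 and Cyp2a4 15. Without that library Cyp2j5 was left out by the filter on low counts.

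**Figure D1:**
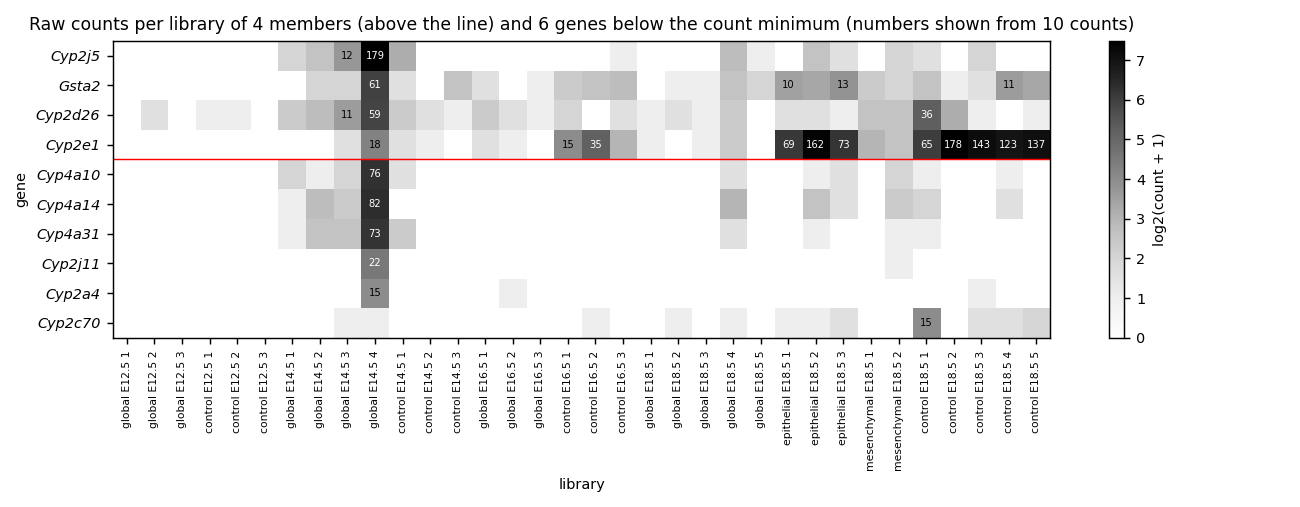
Raw counts (printed from 10 counts, shaded as log2 of the count plus 1) of 4 members and, below the line, 6 genes under the count minimum, in each of the 34 libraries on the horizontal axis. Cyp2j5 reached 179 counts and Cyp4a14 82 in E14.5 global replicate 4, Cyp2d26 and Cyp2c70 stand out in E18.5 control replicate 1, and Cyp2e1 was present in all E18.5 epithelial and control libraries.

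At E16.5, 25 of the 46 genes fell in global lungs and 2 rose, where 37% of all genes were called (20.1% lower and 17% higher). The median log2 fold over the 46 genes was -1.12, against -0.01 over all genes tested. All 4 Fmo genes fell, as did 12 of 23 P450 and 9 of 19 glutathione transferase genes. Fmo2 had 5.72, 8.17 and 9.88 CPM in global lungs, against 285, 373 and 268 CPM in controls (-5.28 ± 0.47, edgeR adjusted p = 1.67e-09), so that E16.5 global lungs also lay below each E14.5 control library. Cyp2f2 (-3.38 ± 0.57) and Cyp4b1 (-3.06 ± 0.38) were next among well-counted genes. Fmo4 fell by a similar size (-2.95 ± 0.43), with 8, 6 and 5 counts in the global libraries, against 34, 47 and 59 in controls. The rises were Gstm5 (0.73 ± 0.15, adjusted p = 0.000281) and Cyp2u1, a fatty acid hydroxylase (0.88 ± 0.35, adjusted p = 0.0475). The call of Cyp2u1 was lost with DESeq2 (adjusted p = 0.072), with no filter on low counts (adjusted p = 0.0545) and when any of 4 libraries was left out (0.62 to 0.97). Cyp2e1 had 3 counts over the global libraries against 57 over the controls, and Cyp4f37 had 1 against 19, of which 14 stood in 1 library.

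The difference between the E16.5 and E14.5 effects was tested itself. It was called for 9 of the 46 genes, all more negative at E16.5, where 7.87% of all genes were called (3.87% lower). Fmo2 led the well-counted genes (-3.28 ± 0.60, edgeR adjusted p = 0.0015), with Fmo1 (-2.24 ± 0.55), Cyp4v3 (-1.67 ± 0.46), Fmo5 (-1.35 ± 0.37), Cyp1b1 (-1.20 ± 0.34), Gstm1 (-1.09 ± 0.22) and Cyp4f13 (-0.70 ± 0.22). Fmo4 (-2.24 ± 0.62) was called too, at 5 to 10 counts in each global library of the 2 days. Cyp2e1 was the ninth, and its value of -6.67 ± 1.69 became -3.94 ± 2.24, no longer called, without E14.5 global replicate 4. The count of 9 became 6 without the kidney-marked E14.5 global replicate 4. It was 5 without E14.5 control replicate 2, 3 without E16.5 control replicate 2, and 5 without E16.5 global replicate 1 or replicate 2. Both effects use their own controls. Between E14.5 and E12.5 no member's effect differed by edgeR or DESeq2, with 1 at an unadjusted p under 0.05 and 0.0437% of all genes called (0.0382% higher and 0.00546% lower).

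**Figure D2:**
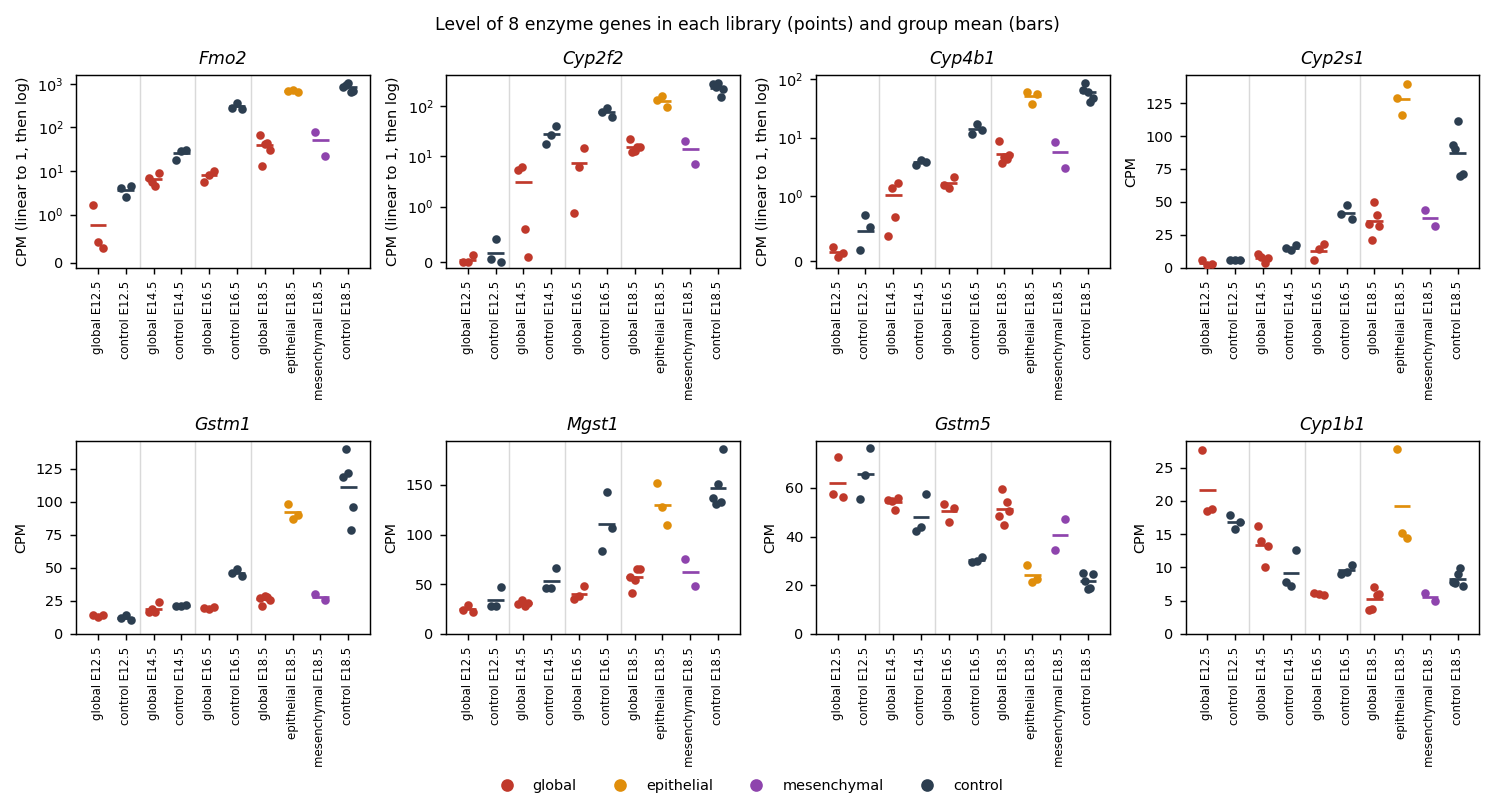
CPM of 8 genes in each library (points) and the mean of each group (bars), with groups by embryonic day on the horizontal axis; Fmo2, Cyp2f2 and Cyp4b1 are drawn on an axis that is linear to 1 CPM and logarithmic above it. Fmo2 lies at 12.8 to 66.3 CPM in E18.5 global lungs and at 664 CPM or more in E18.5 controls, and Gstm5 moves the other way.

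At E18.5, 31 of the 46 genes fell in global lungs and 4 rose, where 64.8% of all genes were called (32.7% lower and 32.1% higher). The median log2 fold over the 46 genes was -0.91, against -0.01 over all genes tested. All 4 Fmo genes fell, with 15 P450 genes of 23 and 12 glutathione transferase genes of 19. The count was 33, 30 of them lower, without the hepatocyte-marked control replicate 1.

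Among the oxidases, Fmo2, the monooxygenase best known from mammalian lung, had 66.3, 12.8, 42.0, 44.2 and 30.6 CPM in global lungs, against 851, 967, 1060, 664 and 679 CPM in controls (-4.43 ± 0.33, edgeR adjusted p = 2.77e-12). Every control lay far above every global library. Fmo2 lies on chromosome 1 (162874317 to 162898726, GRCm38) in a cluster with Fmo1 and Fmo4, which fell by less (-2.57 ± 0.30 and -2.29 ± 0.32). Fmo5, elsewhere in the genome, also fell (-2.28 ± 0.19).

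Cyp2f2 (chromosome 7, 27119909 to 27133660) had 22.5, 12.2, 13.1, 15.3 and 15.8 CPM in global lungs, against 277, 247, 286, 157 and 221 CPM in controls (-3.92 ± 0.43, edgeR adjusted p = 5.09e-09). Cyp4b1 had 8.92, 3.67, 4.69, 4.39 and 5.13 CPM in global lungs, against 64.5, 85.1, 59.96, 39.98 and 47.6 CPM in controls (-3.49 ± 0.27). In both genes the groups were far apart. Cyp2e1 had 6 counts over the 5 global libraries, against 646 over the 5 controls, so its size is set by few counts (-6.85 ± 0.74). Cyp4v3 (-3.06 ± 0.24), Cyp2d22 (-1.79 ± 0.19) and Cyp2s1, an airway P450 that oxidises retinoids (-1.30 ± 0.23), fell as well. Cyp2u1 was the P450 that rose (1.08 ± 0.28, adjusted p = 0.00129), at 1.04 to 2.63 CPM in global lungs, against 0.602 to 1.56 CPM in controls, ranges that overlap. Cyp4f18 (-2.64 ± 0.42), the phenobarbital-inducible Cyp2b10 (-2.29 ± 0.39) and Cyp2c23 (-2.02 ± 0.43) fell at low levels. Cyp2d26 was called lower too, with at most 0.293 CPM in global lungs, against 5.77 CPM in the hepatocyte-marked control replicate 1 and at most 0.963 CPM in the other 4 controls. The call of Cyp2d26 was not followed without that control library.

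Among the conjugating enzymes, Gstm1, a mu class transferase (chromosome 3, 108012255 to 108017973), had 27.1, 21.5, 29.0, 28.2 and 25.7 CPM in global lungs, against 118, 140, 121, 78.5 and 96.1 CPM in controls (-2.07 ± 0.12, edgeR adjusted p = 2.79e-14). Its effect grew further after E16.5: the difference between the E18.5 and E16.5 effects was -0.82 ± 0.20 (adjusted p = 0.00639), and Cyp4v3 (-1.61 ± 0.41) and Cyp2d22 (-1.12 ± 0.31) were the other 2 of 46 genes called there, where 10.7% of all genes were (3.64% lower and 7.04% higher). Without E16.5 global replicate 3, 1 of the 3 was called. Mgst1, a membrane-bound transferase and peroxidase, fell (-1.37 ± 0.17), as did Gsta3 (-2.88 ± 0.36) and, by smaller steps, Gstt1, Gstt2, Gstt3, Gstm2, Mgst3 and Gstm7 (-0.51 to -0.99). Gstp3 had 12 counts over the 5 global libraries, against 79 over the controls, and Gstm6 had 9 against 55.

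Gstm5 went the other way. It lies at 107895821 to 107898686 on chromosome 3, at one end of a cluster of 6 Gstm members that spans 107895821 to 108044894. It had 48.6, 59.4, 44.6, 54.4 and 50.5 CPM in global lungs, against 25.2, 21.9, 18.3, 18.8 and 24.8 CPM in controls (1.25 ± 0.12, edgeR adjusted p = 2.57e-10). No control library reached a global one. The E18.5 global range overlapped the 42.2 to 57.6 CPM of E14.5 controls, a pair that was not tested. Per kilobase of exon, the ratio of Gstm1 to Gstm5 within a library had medians in global lungs of 0.220 at E12.5, 0.292 at E14.5, 0.347 at E16.5 and 0.450 at E18.5. In controls the medians were 0.190, 0.411, 1.37 and 4.08 at the same days. The ratio was 3.04 to 3.53 in E18.5 epithelial lungs and 0.477 and 0.760 in the mesenchymal ones. An antisense gene, 4933431E20Rik, overlaps Gstm5, and without stated strandedness their reads cannot be told apart. Gstp1 (0.65 ± 0.20) also rose at E18.5, with 60.5 CPM in global replicate 5 and 31.3 to 36.6 CPM in the other 4, against 23.0 to 27.9 CPM in controls; the fold was 0.44 ± 0.19 without replicate 5 (adjusted p = 0.0437). Gsta4, which conjugates the lipid peroxidation product 4-hydroxynonenal, was called higher by a small margin (0.32 ± 0.14, adjusted p = 0.0436), at 80.6 to 136 CPM in global lungs, against 72.4 to 93.5 CPM in controls, a call that DESeq2 and other settings did not keep.

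**Figure D3:**
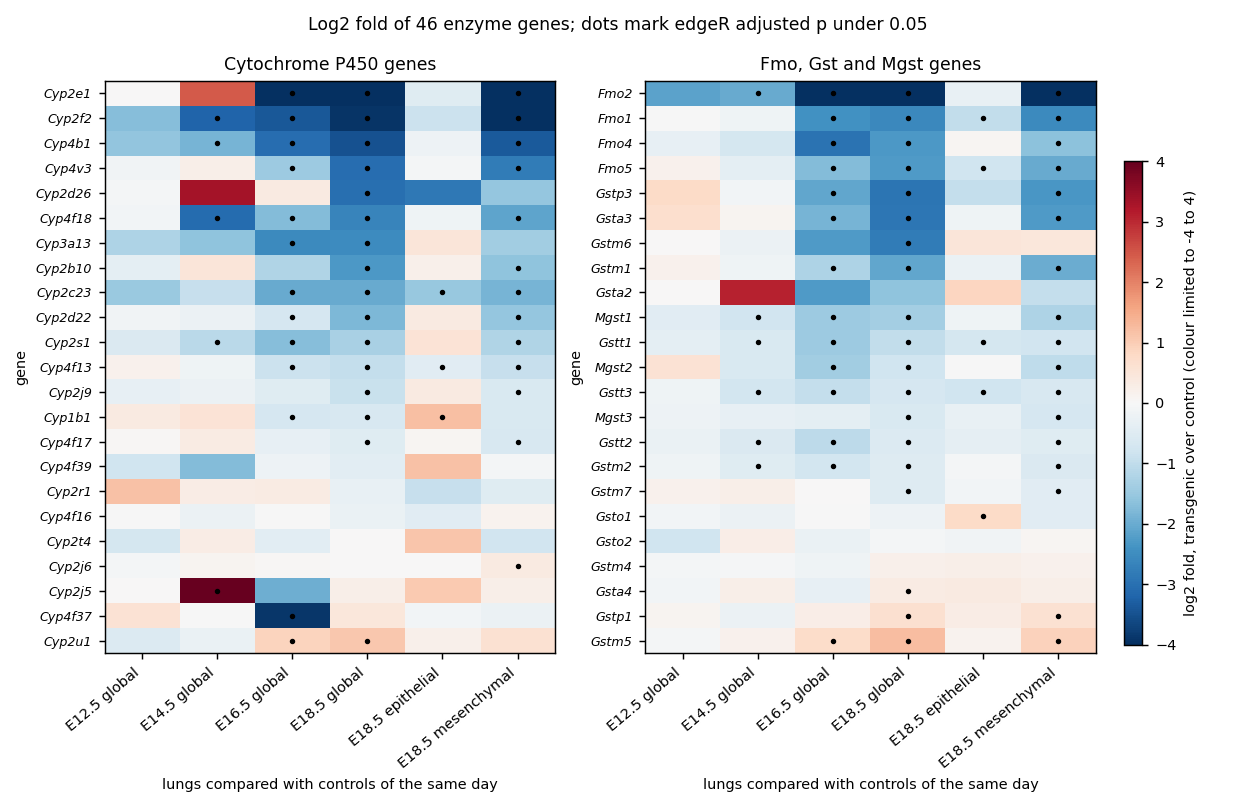
Log2 fold of each of the 46 genes (rows, ordered by the fold in E18.5 global lungs, with the Fmo genes first in their panel) in 6 comparisons of transgenic with control lungs of the same day (columns); dots mark an edgeR adjusted p under 0.05. Blue is lower and red higher in transgenic lungs; 31 genes carry a dot for a fall in E18.5 global lungs and 6 in epithelial ones.

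In mesenchymal lungs at E18.5, 27 of the 46 genes fell and 3 rose, where 54.3% of all genes were called (26.9% lower). Without the hepatocyte-marked control replicate 1, 27 fell and 2 rose. Fmo2 had 79.5 and 21.7 CPM in mesenchymal lungs, against 664 to 1060 CPM in controls (-4.06 ± 0.49, edgeR adjusted p = 6.25e-08). Cyp2f2 had 20.4 and 7.22 CPM in mesenchymal lungs, against 157 to 286 CPM in controls (-4.10 ± 0.65), and Gstm1 had 30.0 and 25.9 CPM in mesenchymal lungs, against 78.5 to 140 CPM in controls (-1.98 ± 0.17). Cyp4b1 (-3.36 ± 0.39), Cyp4v3 (-2.81 ± 0.34), Fmo1 (-2.54 ± 0.43) and Fmo5 (-2.01 ± 0.27) fell too. The rises were Gstm5 (0.91 ± 0.15), Gstp1 (0.61 ± 0.25, adjusted p = 0.0423) and Cyp2j6, an arachidonic acid epoxygenase (0.35 ± 0.14, adjusted p = 0.0375), of which the last 2 were not called under some other settings. With 2 libraries the count depends on each: it was 27 without mesenchymal replicate 1 and 16 without replicate 2, where the lone library is assumed to vary like the other groups.

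Compared directly, no member differed between global and mesenchymal lungs by edgeR or DESeq2, with 4 at an unadjusted p under 0.05; 0.0218% of all genes were called, 0.0109% higher and 0.0109% lower. The 95% interval of the log2 difference was -1.18 to 0.43 for Fmo2, -0.98 to 1.34 for Cyp2f2 and -0.42 to 0.24 for Gstm1. These intervals leave room for differences of more than 2-fold in Fmo2 and Cyp2f2. The 4 genes were Gstm6, Cyp2j6, Gstm5 and Cyp4f16. Gstm6 was lower in global lungs (-3.27 ± 0.87, interval -5.06 to -1.48, edgeR adjusted p = 0.563). Its counts were 0, 2, 3, 2 and 2 in global lungs, against 26 and 14 in mesenchymal ones.

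In epithelial lungs at E18.5, 6 of the 46 genes fell and 2 rose, where 33.2% of all genes were called (15.2% lower and 18% higher). Fmo2 had 700, 721 and 640 CPM in epithelial lungs, against 664 to 1060 CPM in controls (-0.30 ± 0.33, 95% interval -0.99 to 0.39, edgeR adjusted p = 0.526). Cyp2f2 had 133, 158 and 97.9 CPM in epithelial lungs, against 157 to 286 CPM in controls (-0.87 ± 0.45, interval -1.80 to 0.05, adjusted p = 0.137), and it was called in a fit of the compared groups alone (-0.89, adjusted p = 0.0164). Cyp4b1 (-0.20 ± 0.27, interval -0.75 to 0.36) and Gstm1 (-0.27 ± 0.13, interval -0.54 to 0.01) were not called either. The genes that fell were Cyp2c23 (-1.51 ± 0.49), Fmo1 (-0.98 ± 0.33), Gstt3 (-0.80 ± 0.16), Fmo5 (-0.79 ± 0.21), Gstt1 (-0.70 ± 0.18) and Cyp4f13 (-0.47 ± 0.14). The count was 5 without epithelial replicate 3, the calls of Fmo1 and Cyp2c23 were lost without replicate 1 (-0.81 and -1.23) or replicate 3 (-1.06 and -1.25), and that of Gstt1 was lost without replicate 3 (-0.51).

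The 2 genes that rose in epithelial lungs were Cyp1b1 and Gsto1, an omega class transferase that reduces dehydroascorbate. Cyp1b1 had 27.8 CPM in epithelial replicate 1, 15.2 CPM in replicate 2 and slightly less in replicate 3, against 7.86, 7.71, 9.05, 9.90 and 7.18 CPM in controls (1.20 ± 0.22, edgeR adjusted p = 7.68e-05). Every epithelial library was above every control, and the fold was 0.83 ± 0.22 without the highest one. In global lungs of the same day Cyp1b1 fell to 3.66 to 7.08 CPM (-0.64 ± 0.20, adjusted p = 0.00633), and it was the one member called in opposite directions. Directly compared, it was lower in global than in epithelial lungs (-1.84 ± 0.22, adjusted p = 2.16e-08). Gsto1 had 54.5, 63.1 and 92.4 CPM in epithelial lungs, against 36.3 to 49.95 CPM in controls (0.75 ± 0.16, adjusted p = 0.000642).

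The transgenic lungs were also compared directly. Global lungs were lower than epithelial ones in 29 of the 46 genes and higher in 2, Gstm5 (1.09 ± 0.14) and Cyp2u1 (0.88 ± 0.32), where 63.1% of all genes were called (31.8% lower). Cyp2e1 (-6.38 ± 0.78), Fmo2 (-4.14 ± 0.35) and Cyp4b1 (-3.29 ± 0.28) were among the lowest. So was Gstm6, with 0, 2, 3, 2 and 2 counts in global lungs, against 22, 21 and 9 in epithelial ones. Epithelial lungs were higher than mesenchymal ones in 24 genes and lower in 2, with 53.3% of all genes called (26.5% higher). That count of 26 was 15 without mesenchymal replicate 2.

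**Figure D4:**
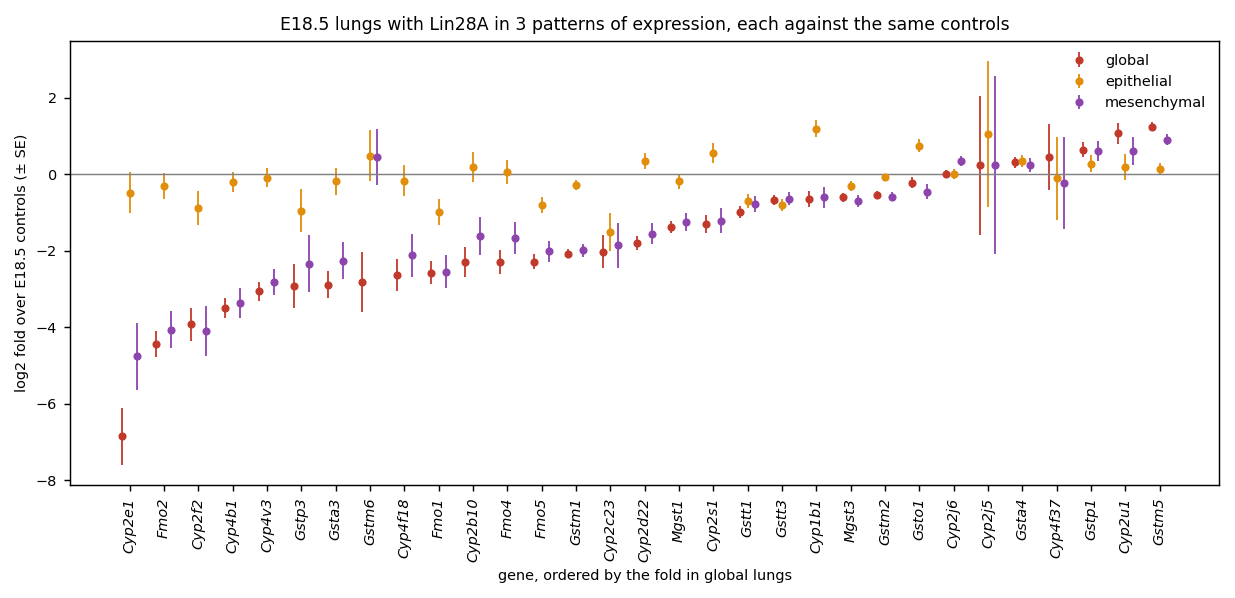
Log2 fold over the E18.5 controls, with its standard error, in global (left point of each gene), epithelial (middle) and mesenchymal (right) lungs for the 31 named genes, ordered by the fold in global lungs. Global and mesenchymal points lie near each other for Fmo2 (-4.43 and -4.06) and Gstm1 (-2.07 and -1.98), while the epithelial points lie near 0 (-0.30 and -0.27); all 3 share the same controls.

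Over the 6 comparisons with controls, 8 members were lower in global lungs at E14.5, E16.5 and E18.5 and in mesenchymal lungs, and not called in epithelial ones: Fmo2, Cyp2f2, Cyp4b1, Cyp4f18, Cyp2s1, Mgst1, Gstm2 and Gstt2. These are 17.4% of the 46 genes, and 3.15% of all genes tested had the same calls. The comparisons at E18.5 share controls. The E14.5 calls lost without control replicate 3 included those of Cyp2s1 and Mgst1, and the call of Gstt2 was not followed there. Cyp2r1, Cyp2t4, Cyp4f16, Cyp4f39, Gsta2, Gstm4 and Gsto2 were called in none of the 6. The 15 members that rose between E12.5 and E14.5 in controls were set against later comparisons with which that step shares no library. All 15 were lower in global lungs at E16.5 and at E18.5 and in mesenchymal lungs, and 3 were lower in epithelial lungs. Without the thymus-marked E14.5 control replicate 3, 9 members rose at that step, and that smaller set was not followed. Of all 2063 genes that rose at that step, 69.85% were lower in E16.5 global, 74.65% in E18.5 global, 68.88% in mesenchymal and 21.1% in epithelial lungs.

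Most markers of club cells and of most other lung cell types also fell in global and mesenchymal lungs at E18.5. The summed level of 13 club cell genes at E18.5 was 53.1 to 230 CPM in global, 1123 to 1514 CPM in epithelial, and 96.8 and 199 CPM in mesenchymal lungs, against 890 to 2821 CPM in controls. Of the 12 tested, 10 fell in global lungs, 1 rose and none fell in epithelial lungs, and 10 fell in mesenchymal lungs. Over all genes tested, 32.7%, 15.2% and 26.9% fell in global, epithelial and mesenchymal lungs. Of the 13 markers, 1 was at 0 in mesenchymal lungs, and Cyp2f2 is not on the list. At E16.5 the sum was 22.3 to 48.8 CPM in global lungs, against 277 to 428 CPM in controls, and at E14.5 it was 11.98 to 32.3 CPM in global lungs, against 62.0 to 117 CPM in controls. Of the 12 tested club cell genes, 7 fell and 1 rose at E16.5, where 20.1% of all genes fell. At E14.5, 4 fell and 1 rose, where 8.43% of all genes fell. The summed level of 10 alveolar type 2 cell genes at E18.5 was 338 to 3566 CPM in global, 10800 to 18680 CPM in epithelial, and 1544 and 5184 CPM in mesenchymal lungs, against 16620 to 26270 CPM in controls. Alveolar type 1 (10), endothelial (10) and fibroblast (10) lists had 10, 9 and 9 members lower in global lungs, 4, 1 and 7 lower in epithelial lungs, and 10, 8 and 9 lower in mesenchymal lungs. The multiciliated (12), mesothelial (7) and leukocyte (8) lists had 9, 7 and 8 members lower in global lungs, 0, 3 and 1 lower in epithelial lungs, and 9, 7 and 8 lower in mesenchymal lungs. At E16.5, 11 of the 12 multiciliated markers were lower in global lungs, where 20.1% of all genes were. The list of 10 pericyte and smooth muscle markers was mixed. In global and in mesenchymal lungs at E18.5, 3 of them rose and 6 fell, where 32.1% and 27.4% of all genes rose. In epithelial lungs 1 rose and 0 fell. Their summed level at E18.5 was 1148 to 1257 CPM in global lungs, against 956 to 1244 CPM in controls. The part of cell makeup in the enzyme gene levels was not tested.

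Genes that work with these enzymes were read from lists, whose counts stand beside the share called over all genes tested at E18.5: 32.1% higher and 32.7% lower in global lungs, 18% higher and 15.2% lower in epithelial lungs, and 27.4% higher and 26.9% lower in mesenchymal lungs. Por, the reductase that feeds every microsomal P450, was singled out after its values were seen. It had 83.1, 75.9, 87.0, 76.9 and 81.0 CPM in global lungs, 535, 255 and 506 CPM in epithelial lungs, and 91.7 and 80.3 CPM in mesenchymal lungs, against 181, 189, 161, 140 and 139 CPM in E18.5 controls. It fell in global (-1.0 ± 0.13, edgeR adjusted p = 6.92e-08) and mesenchymal lungs (-0.91 ± 0.18) and rose in epithelial lungs (1.42 ± 0.14, adjusted p = 7.92e-09). Of 20 tested genes for P450 redox partners and haem, 2 rose and 5 fell in global lungs, with Alad (-1.29 ± 0.18) and Alas1 (-1.09 ± 0.08), enzymes of haem synthesis, the largest. In epithelial lungs 6 rose and 8 fell, and in mesenchymal lungs 1 rose and 6 fell.

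The other lists are given for global lungs at E18.5, where 64.8% of all genes were called. Of their members, 6 of 26 tested epoxide and aldehyde enzymes rose and 16 fell, among them Pon1, a lactonase (-7.88 ± 0.51), and Aldh3a1, an aldehyde dehydrogenase that is also one of the club cell markers (-5.26 ± 0.83). Both were at 0 in at least 1 global library and at most at 0.229 and 0.146 CPM there, so the size of these folds rests on few counts. Of 14 other conjugating enzymes 3 rose and 8 fell, with the methyltransferase Inmt (-6.02 ± 0.51) and the sulphotransferase Sult1a1 (-3.95 ± 0.28) the largest. Of 14 transporters of conjugates 2 rose and 10 fell, among them the prostaglandin carrier Slco2a1 (-2.90 ± 0.22). Slco1a4 was called lower, but with 0 CPM in all 5 global libraries, against 0.623 to 1.59 CPM in controls, no fold is given for it. Of 13 other glutathione transferases and relatives 1 rose and 10 fell, led by Clic5 (-4.04 ± 0.35) and Clic3 (-3.50 ± 0.28), chloride channel proteins with a transferase fold. Of 26 glutathione synthesis and redox genes 9 rose and 9 fell; the largest were Gpx3, the plasma peroxidase (-2.56 ± 0.40), and Ggt5 (-1.81 ± 0.28). Of 12 genes of other P450 families 2 rose and 5 fell, with Cyp8b1, the bile acid hydroxylase (-2.32 ± 0.60), and Cyp51, of sterol synthesis (1.60 ± 0.12), the largest. Cyp8b1 averaged 0.151 CPM in global lungs, against 0.234 to 1.60 CPM in controls, so its fold rests on few counts. Its call was not followed without the hepatocyte-marked control replicate 1.

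Of 27 tested regulators of these enzymes, 6 rose and 13 fell in global lungs at E18.5, 7 rose and 1 fell in epithelial lungs, and 3 rose and 12 fell in mesenchymal lungs, where 64.8%, 33.2% and 54.3% of all genes were called. Ahr, the receptor that induces Cyp1 genes, fell in global lungs at E14.5 (-0.84 ± 0.14), E16.5 (-1.02 ± 0.15) and E18.5 (-1.38 ± 0.12, edgeR adjusted p = 2.6e-11) and in mesenchymal lungs (-1.05 ± 0.16). Nfe2l2 (Nrf2), which induces glutathione transferases, fell at the same days (-0.54 ± 0.16, -1.33 ± 0.17 and -0.97 ± 0.13) and in mesenchymal lungs (-0.94 ± 0.18). Neither was called in epithelial lungs (0.14 ± 0.13 and 0.10 ± 0.15). Cebpa, a transcription factor of maturing lung epithelium and liver, fell at E14.5 (-1.19 ± 0.26), E16.5 (-2.58 ± 0.28) and E18.5 (-2.41 ± 0.21) in global lungs, and Arnt2, a partner of Ahr-type factors, rose at E18.5 (2.44 ± 0.19). Nr1i3 (CAR), the receptor that induces Cyp2b10 in mouse liver, was called at E16.5 (1.57 ± 0.58, adjusted p = 0.0347), with group means under 1 CPM. Nr1i2 (PXR) averaged at most 0.326 CPM in any group and was not tested.

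Some values are uncertain by position or sequence. Another annotated gene overlaps 13 of the 46 members, among them Cyp2f2, Cyp2s1, Cyp4f18, Cyp4v3, Cyp2u1, Gsto1, Gstt3 and Gstm5. Close copies (Gstp1 and Gstp2, the Gsta, Gstm and Cyp4f genes) may share reads that the counting split or dropped.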

How the data were processed

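Poly(A) RNA-seq libraries of 34 lungs were compared; depth was 7147301 to 17624884 counts per library, which sets the counting error. The submitters' processing notes name STAR 2.4.2a, HTSeq 0.6.1p1, cutadapt, bcl2fastq 2.17.1.14, DESeq2 1.10.1 and the GRCm38 build; their roles and the strandedness are not given in the sources used here. The authors deposited raw counts per Ensembl gene and a normalized signal. The deposited signal equals the count divided by 1 factor per library (checked on the values) and was not used. The column of the last mesenchymal library is headed Wt2 where its title reads Wt1, and it was matched as the one left. Symbols, positions and exon lengths came from GENCODE M21 (21754 identifiers found, 35 not).

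In R 4.3.3, edgeR 4.0.16 with limma 3.58.1 fitted 1 quasi-likelihood model of 10 group means to 18319 genes kept by filterByExpr, after TMM scaling (24 residual degrees of freedom; the common biological variation, as a coefficient, was 0.172). P-values were adjusted by Benjamini-Hochberg over all genes within each of 15 comparisons, and each adjusted p is from edgeR unless DESeq2 (1.42.0) is named. Levels (CPM) are counts over TMM-scaled totals. Intervals of log2 differences are 95% intervals with 24 degrees of freedom. The fit was tested on simulated data. Genes were named by level per kilobase, by the 5 largest called rises and falls in each comparison with controls and each control step, by the 4 largest called differences in direct comparisons and effect differences, and by the 2 largest in each pathway list; Por, Cyp2d26, Gsta2, Cyp4f13, Gstm7 and the genes below the count minimum were added after their values were seen. The genes and lists were chosen with earlier results of these data known. Alternatives were DESeq2, RLE size factors, no filter, a fit of the compared groups alone, a replicate block, and leaving out each library. Marker lists for 15 cell types and tissues were summed per library.

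Same-numbered samples did not deviate together: in no comparison of 3 or more pairs was every correlation over 0.1, so the numbers were not taken to pair samples.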

Additional observations from a re-analysis of the deposited data

Results flagged for a closer look

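For independent, normally distributed values chance flags about 1 in 20 groups. Dixon's criterion, over the 31 named genes, placed a library outside its group in 13 of 93 groups of 4 or 5 libraries. In E14.5 global lungs these were Cyp2j5 at 15.54 CPM and Cyp2e1 at 1.563 CPM in replicate 4, Gstm2 at 37.58 CPM, Cyp4f18 at 0.2215 CPM and Gstt3 at 9.525 CPM in replicate 2, and Gsto1 at 24.93 CPM in replicate 1. In E18.5 global lungs they were Cyp4b1 at 8.919 CPM and Cyp2d22 at 13.95 CPM in replicate 1, Cyp2j5 at 0.439 CPM and Cyp2c23 at 0.1463 CPM in replicate 4, and Gstp1 at 60.45 CPM in replicate 5. In E18.5 controls they were Cyp2e1 at 21.43 CPM and Gstp3 at 3.13 CPM in replicate 2. Levels near 0, such as those of Cyp4f18 and Cyp2j5, are not normally distributed, so the share flagged cannot be set against the chance rate.

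The global effect differed between days, by the test of the difference on the log2 scale. From E14.5 to E16.5 the difference was -3.278 for Fmo2, -2.238 for Fmo4, -2.235 for Fmo1, -1.353 for Fmo5, -1.668 for Cyp4v3, -1.199 for Cyp1b1, -1.092 for Gstm1, -0.702 for Cyp4f13 and -6.669 for Cyp2e1, the last from few counts. From E16.5 to E18.5 it was -1.61 for Cyp4v3, -1.116 for Cyp2d22 and -0.823 for Gstm1.

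Genes below the count minimum had counts above every control library. In E14.5 global replicate 4 these were Cyp4a14 with 82 counts, Cyp4a10 with 76, Cyp4a31 with 73, Cyp2j11 with 22 and Cyp2a4 with 15, against at most 3, 2, 4, 0 and 1 in any control. The summed kidney proximal tubule markers of that library were 616 CPM; their part in these counts was not tested. Gstp2 had 10 counts in mesenchymal replicate 1, against at most 6 in any control.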

How the results depend on the processing

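Of 145 values of named genes, 100 were called, and none of these changed direction under any alternative run. In 28 of them the call was lost under at least 1 alternative, and in 13 outside leaving out a library. The members called at E12.5 were 1 with DESeq2. The replicate numbers do not pair the samples. With the replicate block the effect difference between E16.5 and E14.5 gave 4 called members in place of 9, the E14.5 global comparison 8 and the E18.5 global comparison 36. Calls lost outside leaving out a library include Gsta4 in E18.5 global lungs, Gstp1 and Cyp2j6 in mesenchymal lungs, Fmo1 in epithelial lungs, Cyp2u1 and Cyp1b1 at E16.5, and Cyp2j5, Cyp4f18 and Gstt1 at E14.5.

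Over all genes, the called count at E12.5 was 42, against 137 with DESeq2, 11 with the compared groups alone, 26 with no filter and 26 with the block. At E14.5 it was 2357, against 1319 with the block. In epithelial lungs it was 6078, against 3469 with the compared groups alone. Between global and mesenchymal lungs it was 4, against 12 with DESeq2 and 9 with the groups alone. For the effect difference of E14.5 and E12.5 it was 8, against 49 with DESeq2, 23 with the groups alone and 4 with the block, and for that of E16.5 and E14.5 it was 1442, against 3085 with the groups alone.

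Leaving out each library in turn gave these ranges of called members: 0 to 1 in E12.5 global, 7 to 13 in E14.5 global, 21 to 25 in E16.5 global, 33 to 37 in E18.5 global, 5 to 11 in epithelial and 16 to 31 in mesenchymal lungs against controls. For the control steps the ranges were 11 to 15, 18 to 25 and 15 to 21 in order of stage. They were 26 to 32 for global against epithelial, 0 for global against mesenchymal, and 15 to 24 for epithelial against mesenchymal lungs. For the effect differences they were 0, 3 to 9 and 1 to 4 in order of stage. Uncalled values turned sign when 1 library was left out. At E12.5 the ranges were -4.08 to 0.26 for Cyp2f2, -0.59 to 0.29 for Fmo1 (0.05 and 0.09 among them), -0.20 to 0.03 for Gsta4, -0.21 to 0.04 for Gstm5, -0.23 to 0.10 for Gsto1 and -0.16 to 0.29 for Gstp1. At E14.5 they were -0.50 to 0.40 for Fmo1 (0.05 among them) and -0.47 to 0.06 for Gstp1, and at E16.5 -0.07 to 0.08 for Gsto1 (0.01 and 0.03 among them). The cause was not tested.

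Depth limits genes with few counts, such as Cyp2e1, Cyp2j5, Cyp4f18 and Cyp4f37.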
